A study of Mus musculus with 8 samples.

Results

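The genes examined were 10 immediate early genes, Egr1, Egr2, Egr3, Ier2, Ier3, Ier5, Klf4, Klf6, Myc and Nr4a1, found in the table by gene symbol. They lie outside the AP-1 family and the MAP kinase phosphatases. All 10 were found among the 15288 genes of the raw count table, and all 10 passed the filter on low counts and were among the 14024 genes tested. The libraries came from IMCD cells, a mouse line of the inner medullary collecting duct, a segment of the kidney exposed to high and changing salt. In the control group (replicates 1 to 4) the cells were held in serum-free DMEM for 12 h, and in the NaCl group (replicates 5 to 8) 100 mmol NaCl, an amount the labels give without a volume, was added to the same medium for 12 h. Both groups had therefore been without serum for the whole 12 h, and no earlier time was sampled. The labels do not say whether the 4 libraries of a group came from separate cultures, so the p-values measure the spread between these libraries, which may be technical.

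Immediate early genes are transcribed within minutes of a stimulus such as serum, a growth factor or stress, without new protein synthesis, because their promoters are read by transcription factors already present in the cell. Serum response factor with its ERK-activated partners binds CArG boxes, and CREB and its relatives bind cAMP response elements (CREs). The messages are short-lived, so levels hours after a stimulus follow the ongoing balance of synthesis and decay. In the renal medulla such genes are known for early induction by hypertonic NaCl in cultured cells.

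The libraries held between 35.3 and 47.6 M counts, with the highest total in control replicate 1 and the lowest in NaCl replicate 5. Levels are given as CPM, counts scaled by TMM to a common library size. Of 15 collecting duct markers 12 were tested. In the edgeR test described below, 3 rose (Avpr2, Slc14a2 and Cdh1) and 2 fell (Tfcp2l1 and Gata3), beside 16.9% higher and 17.2% lower over all genes. Krt18 (217 ± 25.9 CPM in control and 205 ± 19.2 CPM in NaCl libraries, SD, n = 4 for each group), Krt8 (109 ± 13.6 and 96.5 ± 8.32) and Tfcp2l1 (130 ± 13.6 and 101 ± 3.21) were well detected, while Aqp4 (0.393 and 0.233), Avpr2 (0.108 and 0.646) and Cdh1 (0.195 and 0.535) had very low group means. The other 3 markers of that list, Aqp2, Aqp3 and Elf5, were not tested. By symbol, 14 of the 15 markers were found in the count table, and 12 passed the filter on low counts. Summed over 4 fibroblast markers the level was 2710 to 3124 CPM in control and 2382 to 2758 CPM in NaCl libraries, most of it Col1a1, and 2 of the 4 fell. The 2 leukocyte markers tested summed to 5.95 to 7.19 CPM in control and 14.9 to 15.3 CPM in NaCl libraries, of which Ptprc rose from 4.05 to 13.5 CPM, while Cd68 was at 2.41 and 1.69 CPM and did not pass (log2 fold change -0.51, edgeR adjusted p = 0.0573). The 2 proximal tubule markers summed to 162 to 205 and 155 to 176 CPM, and neither passed the test. In bulk RNA a lower share of cells of a type and less RNA per cell cannot be told apart, and the part of these markers in the results was not tested.

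Upstream sequences are shown for the genes on which the family contrasts turn. RefSeq promoter entries (GRCm38.p6) matched 6 of the 10 genes, Egr2, Ier3, Ier5, Klf4, Klf6 and Nr4a1, and not Egr1, Egr3, Ier2 or Myc. In the 250 bases before the Nr4a1 start, the CRE core TGACG (either strand, so also read as CGTCA, and counted also inside a longer CRE) occurred 4 times. It also occurred 4 times before the Nr4a2 and 4 times before the Nr4a3 start, the 2 paralogues that encode the other NR4A nuclear receptors. Of 32851 promoters of the same length, 17.8% held at least 1 such core and 0.137% held at least 4. The core is part of the full CRE TGACGTCA, which none of the windows of Nr4a1, Nr4a2 and Nr4a3 held. These windows were 74.4%, 80% and 63.6% G or C, and the shares over all promoters are not matched for this. The motifs were chosen after the sequences had been seen, and a match is a description, not a bound site. Capitals mark the cores in these stretches, printed 5′ to 3′ on the gene's strand with up to 20 bases on either side of the outermost cores. No base of a GENCODE M21 exon is included, which leaves the fourth Nr4a3 core outside.
Nr4a1, chr15:101266596-101266830 (+): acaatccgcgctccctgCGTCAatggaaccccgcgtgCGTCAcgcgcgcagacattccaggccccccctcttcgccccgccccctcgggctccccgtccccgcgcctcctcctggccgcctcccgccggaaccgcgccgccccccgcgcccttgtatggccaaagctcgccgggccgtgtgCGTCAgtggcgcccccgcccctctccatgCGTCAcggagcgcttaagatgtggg
Nr4a2, chr2:57124090-57124223 (-): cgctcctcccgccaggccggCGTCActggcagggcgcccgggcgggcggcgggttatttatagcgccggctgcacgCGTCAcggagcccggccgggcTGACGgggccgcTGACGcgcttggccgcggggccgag
Nr4a3, chr4:48045055-48045124 (+): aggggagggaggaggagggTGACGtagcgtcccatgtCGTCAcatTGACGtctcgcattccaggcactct

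Stretches before Egr2 and Klf4, which encode zinc-finger factors of different families, are shown for contrast. Egr2 has 5 listed starts, and at the third of them a CArG box begins 72 bases before the start, flanked by 2 CRE cores. The window of the first start held no CArG box and no CRE core, and that of the second held a CArG box and no CRE core. A CArG box was found in 1.47% of promoters. The Klf4 window held no CArG box, 1 CRE core and 4 GC boxes (GGGCGG, either strand, overlapping matches counted), a letter run that 4.09% of promoters held at least 4 times and that the KLF and SP proteins are known to bind. The windows of the first Egr2 start and of Nr4a2 held 4 GC boxes as well. Capitals mark the CArG box and CRE cores in Egr2, and the CRE core and GC boxes in Klf4.
Egr2, chr10:67537738-67537838 (+): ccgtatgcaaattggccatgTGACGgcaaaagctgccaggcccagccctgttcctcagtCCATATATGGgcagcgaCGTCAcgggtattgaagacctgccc
Klf4, chr4:55532551-55532725 (-): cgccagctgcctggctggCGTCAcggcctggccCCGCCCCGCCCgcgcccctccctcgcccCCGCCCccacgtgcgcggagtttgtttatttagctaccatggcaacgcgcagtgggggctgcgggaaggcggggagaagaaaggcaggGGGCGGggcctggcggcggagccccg

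Levels were compared between genes per length, as CPM divided by the kilobases of annotated exon (CPM per kb). In control libraries Ier3 was the most abundant of the 10 at 76.5 ± 11.5 CPM per kb (SD, n = 4), followed by Ier2 at 41.3 ± 1.69. Egr1 was at 29.7 ± 0.823, Klf6 at 29.1 ± 1.09, Myc at 19.1 ± 0.733, Ier5 at 17.6 ± 0.669, Nr4a1 at 3.99 ± 0.333, Klf4 at 3.50 ± 0.145, Egr2 at 1.08 ± 0.0636 and Egr3 at 1.05 ± 0.0938 CPM per kb. Of these neighbours, the library values overlapped between Egr1 and Klf6, Myc and Ier5, Nr4a1 and Klf4, and Egr2 and Egr3. In NaCl libraries the order was the same except that Klf6, at 27.5 ± 0.920 CPM per kb, stood above Egr1, at 20.5 ± 0.236, and overlapped with Ier2, at 29.8 ± 1.37. From the highest to the lowest gene the range was 72.9-fold in control and 94.4-fold in NaCl libraries.

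NaCl against control was then compared. In edgeR's quasi-likelihood fit, adjusted by Benjamini-Hochberg over all 14024 genes, 6 of the 10 genes fell (adjusted p under 0.05), Egr1, Egr3, Ier2, Klf4, Myc and Nr4a1, and 0 rose (0 also by DESeq2 and limma, and 0 at an unadjusted p under 0.05, where 9 were lower). The background for a call in this direction was 17.2% of all genes tested, for a call of higher 16.9%, and for a call in either direction 34.1%. An unadjusted p under 0.05, in either direction, was found for 6077 of the 14024 genes. In 5 of the 10 genes all controls lay above all NaCl libraries, as they did in 16.9% of all genes tested. The median log2 fold change was -0.27 over the 10 genes and 0.00 over all genes tested. The other 4 genes, Egr2, Ier3, Ier5 and Klf6, also had values below 0, from -0.36 to -0.08, and did not pass the threshold. No gene of the 10 changed by 2-fold. Without NaCl replicate 5, 6 or 7 the number that fell was 4, beside 15.7%, 14.4% and 14.9% lower over all genes. Without NaCl replicate 8 it was 8, beside 15.9%. Egr1, Egr3 and Ier2 passed whichever library was left out. Fits with the library number, used below, move the background too: 12.6% of all genes were called lower and 11.5% higher with it as a linear term, and 22% and 21% with it centred within its group. The numbers run 1 to 4 in control and 5 to 8 in NaCl libraries, so the linear term is largely confounded with group. Its group difference is read at a shared library number, which the groups do not have. The centred fit is the same model, with that difference read at each group's own mean number. Calls lost or gained under the linear term cannot be told apart from this overlap.

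**Figure D1:**
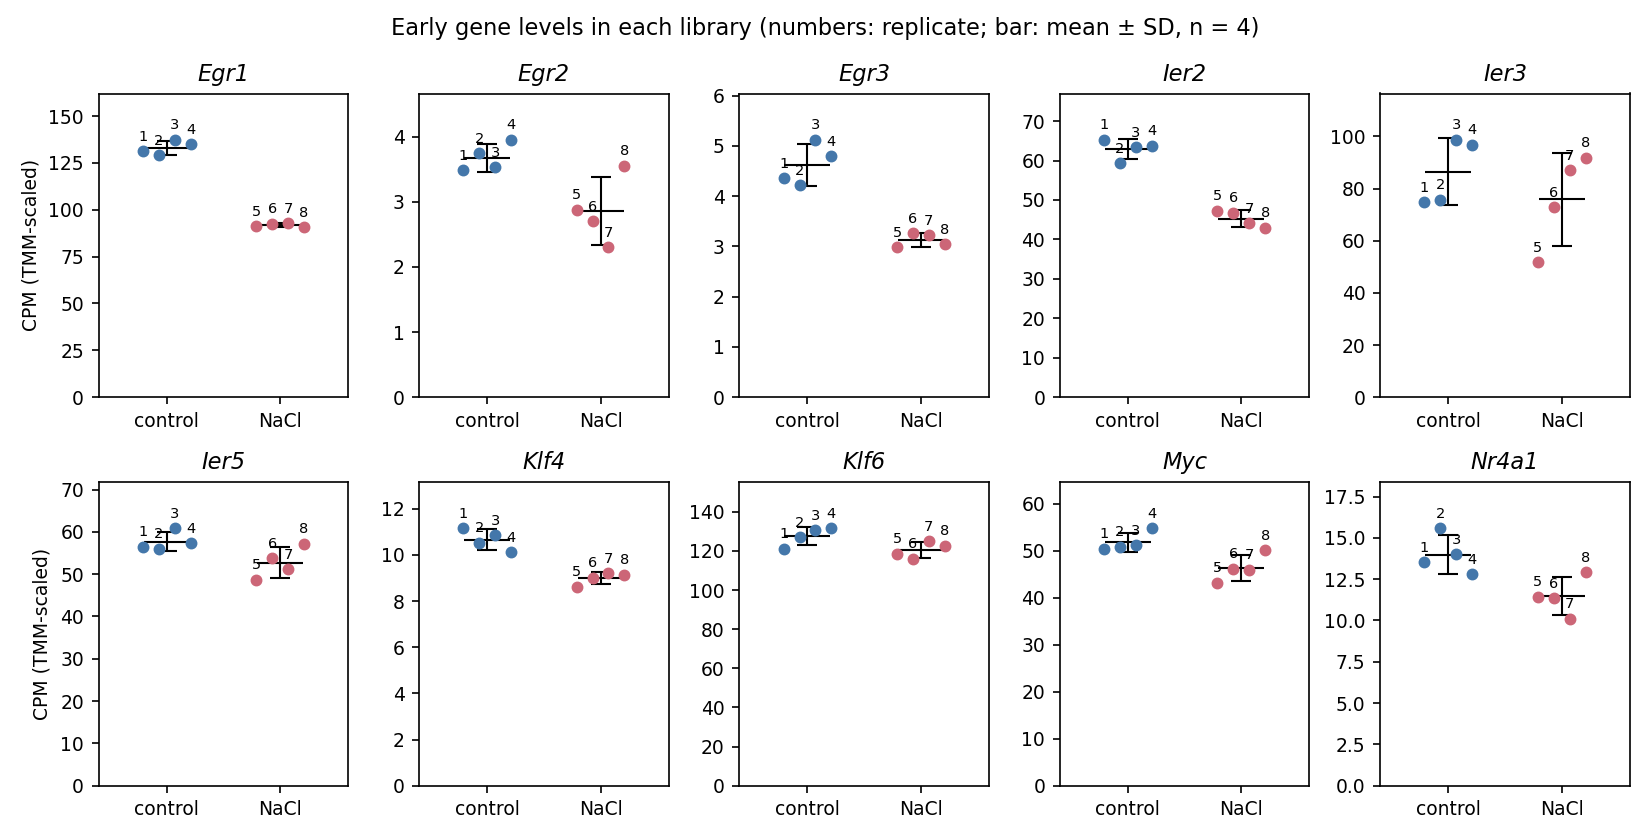
Level of each of the 10 early genes in every library, as TMM-scaled CPM on axes that start at 0, with replicate numbers beside the points and bars for the mean ± SD of 4 libraries. Control points lie above all NaCl points for Egr1, Egr3, Ier2, Klf4 and Myc, and the groups overlap for the other 5 genes.

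The EGR genes encode zinc-finger transcription factors that bind GC-rich sites. Egr1 (ENSMUSG00000038418, chr18:34859823-34864984) is the prototype of the family, induced by growth factors and stress. It had 131, 129, 137 and 135 CPM in control replicates 1 to 4 and 91.1, 92.6, 92.8 and 90.7 CPM in NaCl replicates 5 to 8. The groups were far apart, and the 4 NaCl libraries lay close to each other. Egr1 fell by 31.0% (log2 fold change -0.54, SE 0.034, 95% interval -0.61 to -0.46, adjusted p = 4.20e-09 in edgeR), and 4.87% of all genes tested had a lower log2 fold change.

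Egr3 (ENSMUSG00000033730, chr14:70077203-70082614) encodes a relative with a role in muscle spindle and lymphocyte development. Its levels were 4.36, 4.22, 5.12 and 4.80 CPM in control and 2.99, 3.26, 3.22 and 3.05 CPM in NaCl libraries, from counts of 107 to 212. All control libraries were above all NaCl libraries. Egr3 fell by 32.2% (log2 fold change -0.56, SE 0.13, 95% interval -0.83 to -0.29, edgeR adjusted p = 0.00254), the lowest log2 fold change of the 10 genes. When the library number entered the fit as a linear term, its value was -0.72 and its adjusted p 0.0535.

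Egr2 (ENSMUSG00000037868, chr10:67535475-67542188) encodes a factor known for myelination and hindbrain patterning. It had 3.48, 3.75, 3.53 and 3.95 CPM in control and 2.87, 2.70, 2.30 and 3.55 CPM in NaCl libraries, from counts of 95 to 167. NaCl replicate 8 lay above control replicates 1 and 3, and the other 3 NaCl libraries lay below all controls. The log2 fold change was -0.36 (SE 0.15, 95% interval -0.69 to -0.04), with an unadjusted p of 0.0304 and an edgeR adjusted p of 0.0784. With the library number as a linear term the value was -0.62 and was not called (adjusted p = 0.161). Without NaCl replicate 8 it was -0.49 and Egr2 passed the threshold (adjusted p = 0.0255). In that group the spread of Egr2 was 18.2% of its mean, where counting error alone gives 9.31%.

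The ratio of Egr1 to Egr3 was then compared. The log2 ratio of their counts within a library was 4.85 ± 0.0882 in control libraries and 4.87 ± 0.0467 under NaCl (SD, n = 4 each), a difference of 0.02 (exact two-sided permutation p = 0.686, adjusted over 11 pairs 0.714). The 11 pairs were chosen after the values had been seen, and 0 of them had an adjusted p under 0.05. With 4 against 4 libraries the smallest permutation p is 0.0286. Pairs that reached it stood at 0.0786 after adjustment, a value set by the numbers of libraries and pairs, so the count of 0 decides nothing. This ratio does not depend on how libraries are scaled. The Egr1 to Egr2 ratio changed by -0.16 (exact permutation p = 0.343, adjusted 0.454), with NaCl replicate 8 lowest at 4.67 and NaCl replicate 7 highest at 5.33.

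The Nab genes encode co-repressors that bind EGR proteins, and Nab2 is a known EGR target. Nab2 fell from 134 ± 7.64 to 121 ± 3.39 CPM (SD, n = 4 each; log2 fold change -0.15, edgeR adjusted p = 0.00979), while Nab1 rose from 134 ± 4.01 to 145 ± 3.06 CPM (log2 fold change 0.11, adjusted p = 0.0159). The groups did not overlap for either gene. With the library number as a linear term the call of Nab2 was lost.

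The IER genes encode small proteins without a DNA-binding domain of the EGR or KLF kind. Ier2 (ENSMUSG00000053560, chr8:84661331-84662852, an intronless gene of 1522 exon bases) encodes a nuclear protein linked to cell motility. It had 65.2, 59.2, 63.3 and 63.8 CPM in control and 47.3, 46.8, 44.1 and 43.0 CPM in NaCl libraries. The groups were separated by more than the range within either. Ier2 fell by 28.0% (log2 fold change -0.47, SE 0.047, 95% interval -0.57 to -0.37, edgeR adjusted p = 9.16e-07).

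Ier5 (ENSMUSG00000056708, chr1:155096361-155099636, also intronless) encodes a protein known to promote the activity of heat shock factor HSF1. It had 56.5, 56.0, 60.8 and 57.4 CPM in control and 48.7, 53.8, 51.2 and 57.2 CPM in NaCl libraries, and NaCl replicate 8 lay above control replicates 1 and 2. Its log2 fold change was -0.13 (SE 0.052, 95% interval -0.24 to -0.02, edgeR adjusted p = 0.0622). It passed the threshold without NaCl replicate 8 (-0.17, adjusted p = 0.0162). The Ier2 to Ier5 ratio within a library was lower in all 4 NaCl libraries than in any control, with a difference of -0.34 in the log2 ratio (exact permutation p = 0.0286, the smallest that 4 against 4 libraries can give, adjusted over 11 pairs 0.0786).

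Ier3 (ENSMUSG00000003541, chr17:35821684-35822923), also known as IEX-1, encodes a regulator of cell survival and is a known NF-kB target. It had 74.9, 75.7, 98.7 and 96.9 CPM in control replicates 1 to 4 and 51.8, 72.8, 87.1 and 91.8 CPM in NaCl replicates 5 to 8. The groups overlapped widely, with NaCl replicates 7 and 8 above control replicates 1 and 2, and NaCl replicate 5 lowest of the 8. Its spread was 15.03% of the mean in control and 23.7% in NaCl libraries, where counting error alone gives 1.64 and 1.80%, the widest excess over counting error of the 10 genes. The log2 fold change was -0.19 with a 95% interval of -0.68 to 0.31 (edgeR adjusted p = 0.541), which includes changes in both directions. Without NaCl replicate 5 the value was -0.04. A fit with the library number as a linear term gave -1.03 (adjusted p = 0.0145). With the number centred within its group it did not pass the threshold.

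The KLF genes encode zinc-finger factors of GC boxes and CACCC sites. Klf4 (ENSMUSG00000003032, chr4:55527143-55532466) encodes a factor of epithelial differentiation and growth arrest. It had 11.2, 10.5, 10.8 and 10.1 CPM in control and 8.62, 9.01, 9.21 and 9.15 CPM in NaCl libraries, with no overlap, from counts of 309 to 532. Klf4 fell by 15.6% (log2 fold change -0.24, SE 0.081, 95% interval -0.42 to -0.07, edgeR adjusted p = 0.0276). When control replicate 1 or 3, or NaCl replicate 5 or 6, was left out, the adjusted p was between 0.0550 and 0.0703, and with the linear term it was 0.417.

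Klf6 (ENSMUSG00000000078, chr13:5861482-5870394) encodes a broadly expressed factor of epithelial and liver cells. It had 121, 127, 131 and 132 CPM in control and 118, 116, 125 and 123 CPM in NaCl libraries, with NaCl replicates 7 and 8 above control replicate 1. Its log2 fold change of -0.08 was the smallest in size of the 10 (SE 0.038, 95% interval -0.16 to -0.00092, edgeR adjusted p = 0.111). Without control replicate 1 the value was -0.11 and Klf6 passed (adjusted p = 0.0382). The Klf4 to Klf6 ratio changed by -0.16 (exact permutation p = 0.0571, adjusted over 11 pairs 0.126).

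Myc (ENSMUSG00000022346, chr15:61985391-61990374) encodes the growth-promoting factor that pairs with MAX on E-boxes. It had 50.4, 50.8, 51.2 and 54.7 CPM in control and 43.2, 46.2, 45.9 and 50.1 CPM in NaCl libraries. All controls were above all NaCl libraries, and NaCl replicate 8 was just below control replicate 1. Myc fell by 10.5% (log2 fold change -0.16, SE 0.051, 95% interval -0.27 to -0.05, edgeR adjusted p = 0.0220). Without control replicate 4 or NaCl replicate 5, 6 or 7 the adjusted p was between 0.0522 and 0.0711. With the library number as a linear term the value was -0.36 (adjusted p = 0.00193).

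Nr4a1 (ENSMUSG00000023034, chr15:101254269-101274795) encodes NUR77, an orphan nuclear receptor whose activity is set mainly by its amount. It had 13.5, 15.6, 14.02 and 12.8 CPM in control and 11.4, 11.4, 10.1 and 12.9 CPM in NaCl libraries, and NaCl replicate 8 lay just above control replicate 4. Nr4a1 fell by 18.1% (log2 fold change -0.29, SE 0.090, 95% interval -0.48 to -0.10, edgeR adjusted p = 0.0207). The call was lost without control replicate 2 (0.0790), without NaCl replicate 7 (0.0737) and with the linear term (0.259).

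The other genes of these families did not move as a block. Of 17 tested, 5 fell, 4 rose and 8 did not pass the threshold, with a median log2 fold change of -0.06. These are shares of 29.4% lower and 23.5% higher, beside 17.2% and 16.9% of all genes. Without control replicate 4, 3 fell, and with the linear library term 7 fell and 3 rose. The 2 paralogues of Nr4a1 rose. Nr4a2 had 22.8, 27.6, 29.8 and 29.3 CPM in control and 42.4, 45.6, 40.9 and 42.1 CPM in NaCl libraries (log2 fold change 0.64, SE 0.073, edgeR adjusted p = 6.23e-06). Nr4a3 was low, with 1.16 to 1.43 CPM in control and 1.84 to 2.87 CPM in NaCl libraries (log2 fold change 0.85, SE 0.20, adjusted p = 0.00350). Neither gene's groups overlapped.

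The same opposite directions can be read as ratios within each library, which are a description and no further test, since these pairs were picked for them. The log2 ratio of Nr4a1 to Nr4a2 counts was -0.97 ± 0.210 in control libraries and -1.90 ± 0.146 under NaCl (SD, n = 4 each), and that of Nr4a1 to Nr4a3 was 3.44 ± 0.110 and 2.31 ± 0.303. The differences were -0.94 and -1.13, and in both ratios all NaCl libraries lay below all controls (exact permutation p = 0.0286 each, adjusted over 11 pairs 0.0786, which did not pass).

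**Figure D2:**
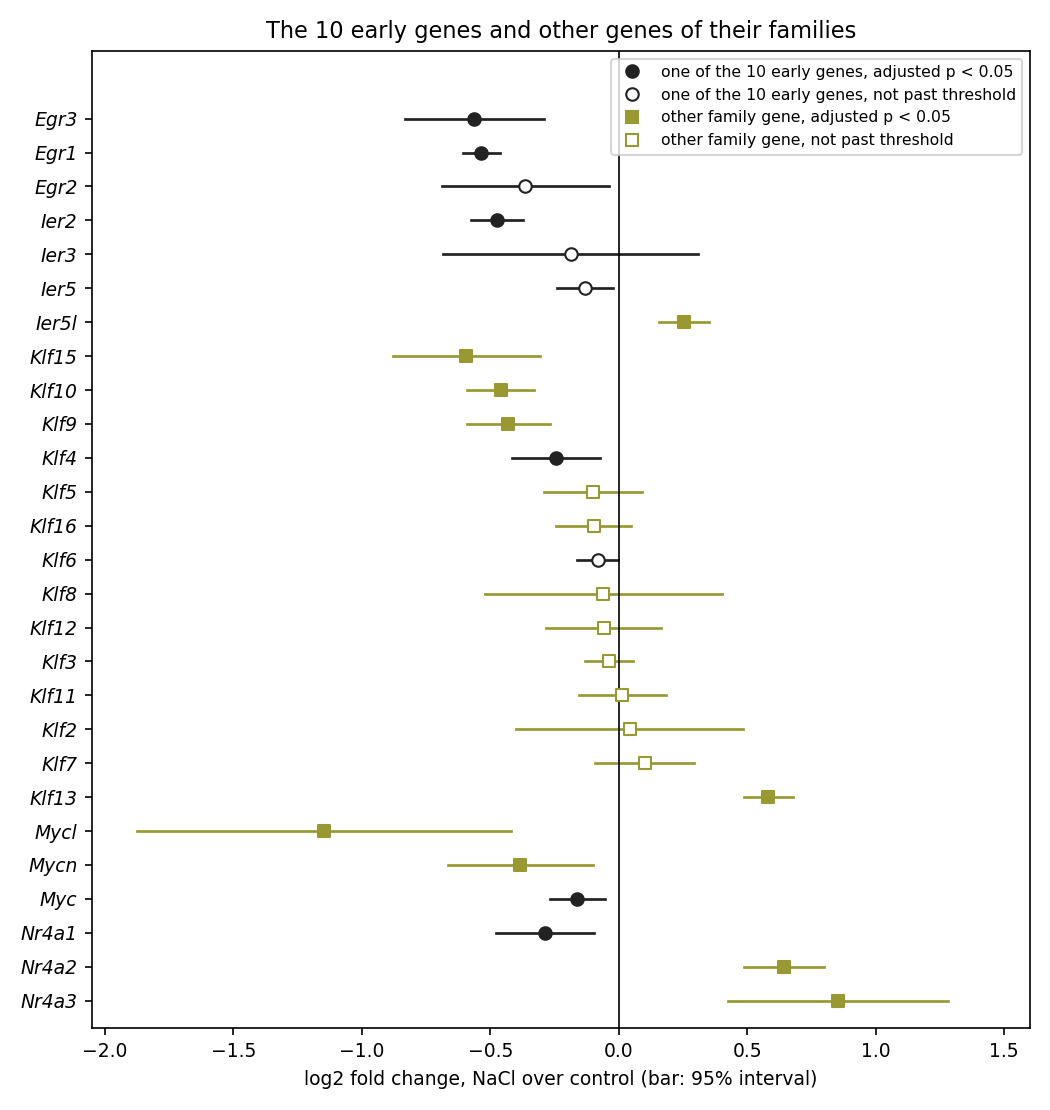
Log2 fold change, NaCl over control, with 95% intervals for the 10 early genes (circles) and 17 other genes of their families (squares), filled where the edgeR adjusted p is under 0.05. The EGR and MYC genes lie left of 0, Nr4a2, Nr4a3, Klf13 and Ier5l lie right of it, and Nr4a1 lies on the other side from its paralogues.

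In the IER family, Ier5l, a gene related to Ier5, rose from 79.7 ± 2.34 to 95.2 ± 6.29 CPM (log2 fold change 0.26, SE 0.046, edgeR adjusted p = 0.000406). The Ier5 to Ier5l ratio was -0.47 ± 0.0405 in control and -0.85 ± 0.196 in NaCl libraries, with no overlap (exact permutation p = 0.0286, adjusted over 11 pairs 0.0786). Mycn fell from 8.34 ± 1.41 to 6.38 ± 0.885 CPM (log2 fold change -0.38, adjusted p = 0.0351), with overlap between the groups, and the Myc to Mycn ratio differed by 0.22 (exact permutation p = 0.200, adjusted 0.367). Mycl, at 0.545 to 1.21 CPM in control and 0.333 to 0.449 CPM in NaCl libraries, fell as well (log2 fold change -1.15, adjusted p = 0.0160).

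Among the 12 other KLF genes tested, 3 fell and 1 rose, beside 17.2% lower and 16.9% higher over all genes. Klf10, a TGF-beta induced early gene, fell from 50.8 ± 3.46 to 37.0 ± 2.94 CPM (log2 fold change -0.46). Klf9, known as a target of glucocorticoid and thyroid hormone receptors, fell from 47.3 ± 4.67 to 35.1 ± 3.10 CPM (log2 fold change -0.43). Klf15 fell from 6.16 ± 0.756 to 4.07 ± 0.639 CPM (log2 fold change -0.59). Klf13 rose from 53.6 ± 2.19 to 80.3 ± 3.37 CPM (log2 fold change 0.58). Their edgeR adjusted p-values were 2.39e-05, 0.000535, 0.00259 and 3.47e-08, and the groups overlapped for none of these 4 genes. Klf2, Klf3, Klf5, Klf7, Klf8, Klf11, Klf12 and Klf16 had log2 fold changes from -0.10 to 0.10 and did not pass.

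**Figure D3:**
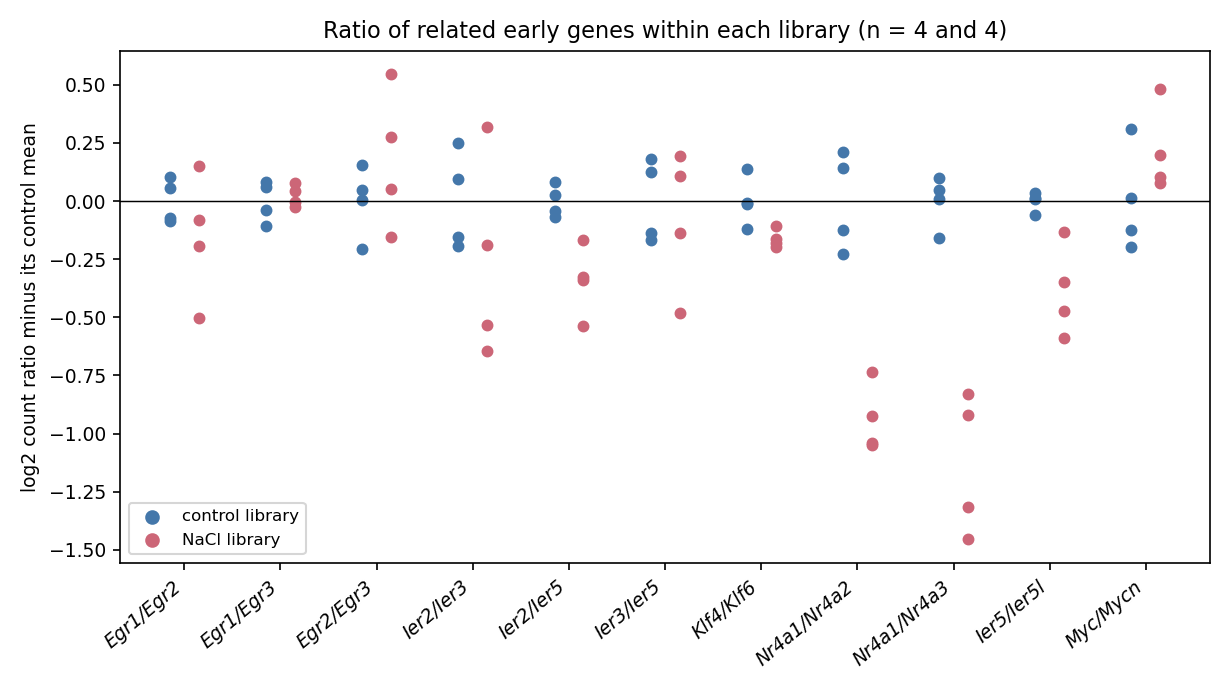
Log2 ratio of the counts of 2 related genes within each library, minus the mean of the 4 controls, for 11 pairs. NaCl libraries lie below all controls for Ier2/Ier5, Nr4a1/Nr4a2, Nr4a1/Nr4a3 and Ier5/Ier5l, and the Egr1/Egr3 points of both groups lie on both sides of the control mean.

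The kinases and promoter factors that switch on early genes were examined from a list of ERK and p38 pathway members with SRF, ELK, MRTF and CREB factors. Of 29 tested, 6 rose, 3 fell and 20 did not pass, with a median log2 fold change of 0.00. The shares of 20.7% higher and 10.3% lower stand beside 16.9% and 17.2% of all genes. With the library number as a linear term 3 rose and 4 fell, and with the number centred within its group 7 rose and 6 fell. Srf itself was at 51.5 ± 2.78 CPM in control libraries and 50.4 ± 1.83 CPM under NaCl (SD, n = 4 each; 95% interval of the log2 fold change -0.13 to 0.07, edgeR adjusted p = 0.678). Those that fell were Map2k6, Nras and Atf1, and Crem, which encodes CREB-family activators and repressors, had the highest log2 fold change of the called genes (16.8 ± 1.04 to 25.0 ± 0.465 CPM, 0.57, edgeR adjusted p = 2.70e-06). Map2k6, which encodes a p38-activating kinase known in the osmotic stress response, had the lowest (18.6 ± 1.78 to 14.3 ± 1.52 CPM, log2 fold change -0.39, adjusted p = 0.00286).

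Of 43 other immediate early genes tested, 17 fell (39.5%, beside 17.2% of all genes) and 6 rose (13.95%, beside 16.9%), with a median log2 fold change of -0.14. With the linear library term 23 fell and 4 rose. Dusp5, which encodes a nuclear ERK phosphatase, fell from 22.4 ± 0.908 to 10.3 ± 0.820 CPM (log2 fold change -1.12, edgeR adjusted p = 6.51e-09). Gem, a small GTPase gene, rose from 6.87 ± 1.02 to 19.5 ± 1.71 CPM (log2 fold change 1.51, adjusted p = 7.44e-09). Of 12 genes for the decay of short-lived messages, 3 fell (Zfp36l1, Zfp36l2 and Cnot7; 25%, beside 17.2% of all genes) and none rose (beside 16.9%); without control replicate 3, or with the linear library term, 1 rose. Cnot7, a deadenylase gene, had the value nearest to 0 of these (-0.12, edgeR adjusted p = 0.0256). Zfp36l1, an AU-rich element binding decay factor, had the lowest value (233 ± 24.9 to 178 ± 14.7 CPM, log2 fold change -0.39, adjusted p = 0.00674), and its relative Zfp36 did not pass (log2 fold change 0.17, adjusted p = 0.156).

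Most genes of a list of known MYC targets fell. Of 33 tested, 23 fell, 3 rose (E2f1, Bop1 and Ppat) and 7 did not pass, with a median log2 fold change of -0.29. The shares of 69.7% lower and 9.09% higher stand beside 17.2% and 16.9% of all genes. With the linear library term 12 fell, where 12.6% of all genes did, and 1 rose without control replicate 3 or 4 or NaCl replicate 5 or 6. The list holds many nucleolar genes and was chosen with earlier results of these libraries known, so its direction is not independent evidence. Odc1, the gene for the rate-limiting enzyme of polyamine synthesis, fell from 179 ± 8.83 to 121 ± 3.85 CPM (log2 fold change -0.56, edgeR adjusted p = 1.43e-08). Slc16a1, a lactate transporter gene, had the lowest value (50.7 ± 4.83 to 32.6 ± 0.919 CPM, log2 fold change -0.64, adjusted p = 6.20e-07), and E2f1, a cell cycle factor gene, the highest of those called (0.25, adjusted p = 0.00187).

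Of 17 partners and turnover factors of MYC tested, 3 rose (Mxd4, Mga and Huwe1) and 1 fell, or 2 without NaCl replicate 8. The share that rose, 17.6%, was near the 16.9% of all genes. With the library number as a linear term 1 rose and 3 fell, and with the number centred 4 rose and 2 fell. Max was at 65.7 ± 1.36 and 65.5 ± 2.38 CPM (95% interval of the log2 fold change -0.09 to 0.08, edgeR adjusted p = 0.937). Mxd4, which encodes a MAX partner that opposes MYC, rose from 114 ± 5.83 to 139 ± 2.88 CPM (log2 fold change 0.28, adjusted p = 3.05e-05). Skp2, a ubiquitin ligase subunit gene, fell from 45.2 ± 4.11 to 37.1 ± 3.79 CPM (log2 fold change -0.29, adjusted p = 0.0105).

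Of 4 genes for EGR and NR4A co-regulators, 1 rose and 2 fell, beside 16.9% higher and 17.2% lower over all genes. The number that fell was 1 without control replicate 1 or 2 or NaCl replicate 6, 7 or 8, and the number that rose was 0 without control replicate 2. With the linear library term 0 fell, so that the calls of both Nab2 and Rxra were lost. Besides the Nab genes, Rxra, the gene of a nuclear receptor that pairs with NR4A proteins, fell (log2 fold change -0.16, edgeR adjusted p = 0.0364). Among 11 genes linked to IER and KLF functions, 2 rose (18.2%) and 1 fell (9.09%), shares near or below those of all genes. Leaving out any library other than control replicate 1 or 4 gave 1 that rose, and without control replicate 4 there were 0 that rose and 2 that fell. With the linear library term 1 rose, and with the number centred 2 fell. Cdkn1c, a cell cycle inhibitor gene at 0.577 ± 0.166 and 1.14 ± 0.197 CPM, was 1 of the 2 that rose (log2 fold change 0.98, adjusted p = 0.0171). Hsf1 rose from 59.8 ± 3.03 to 65.2 ± 2.50 CPM (log2 fold change 0.12, adjusted p = 0.0487, with overlap). Cdkn1a, a cell cycle inhibitor gene known as a target of KLF4 and KLF6, fell from 146 ± 2.47 to 111 ± 14.4 CPM (log2 fold change -0.40, adjusted p = 0.00421).

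**Figure D4:**
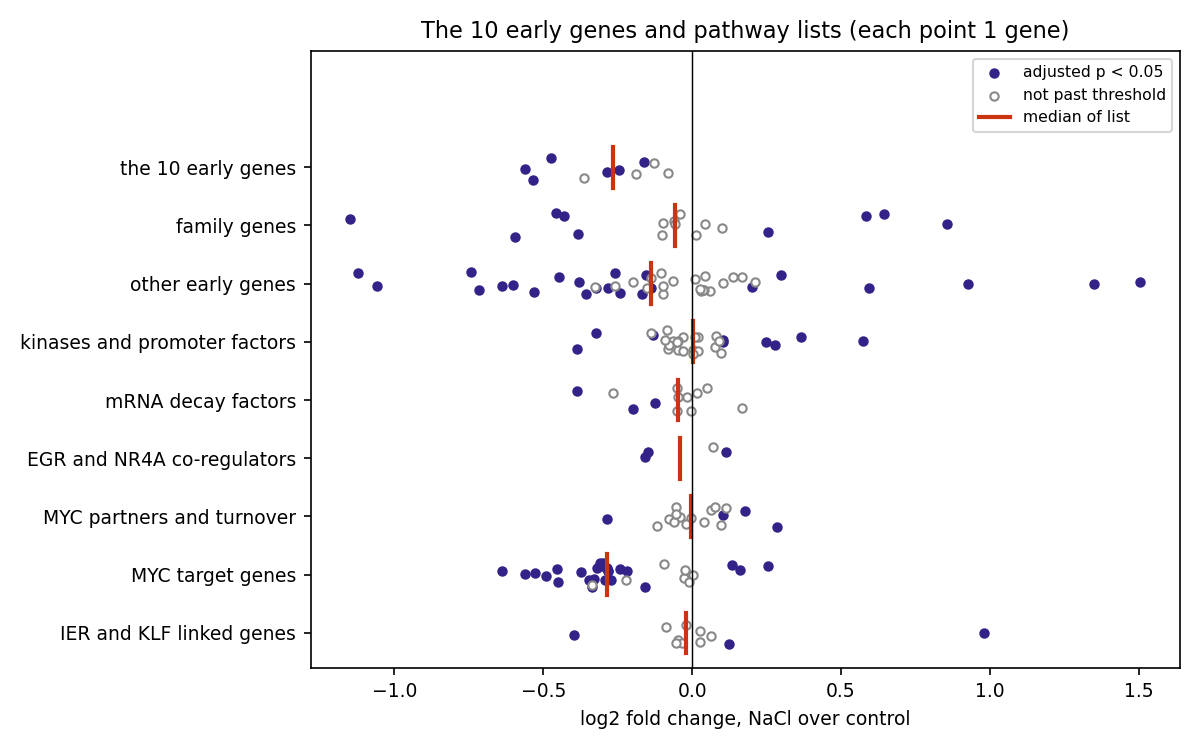
Log2 fold change, NaCl over control, of every tested gene in the 10 early genes and in 8 pathway lists, filled where the edgeR adjusted p is under 0.05, with a bar at each list's median. The medians of the 10 early genes and of the MYC targets are -0.27 and -0.29, and the other lists lie between -0.14 and 0.00.

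Genes with the pattern nearest to 2 of the 10 genes were looked up among 11683 other genes, by the root mean square distance over the 8 libraries of log2 CPM, each gene taken relative to its own control mean. Nearest to Egr3, the gene with the lowest log2 fold change, were Oga (0.0524), Egr1 (0.0618) and Ptger4 (0.0724). Nearest to Klf6, the gene with the highest, were Ptbp3 (0.0112), Pam (0.0184) and Micu2 (0.0198). The annotation placed no other gene across any of the 10, and no stretch of at least 75 bases at 98% identity was shared between their transcripts and those of another gene.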

How the data were processed

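Bulk RNA-seq of 8 libraries, 4 per group, was analysed. The authors deposited raw counts per Ensembl gene, and a table of normalized signal equal to the count divided by a factor per library (0.864 to 1.145). The submitters' processing notes list Trim Galore 0.6.7, STAR, DESeq2 1.34.0 and mm10, without roles; the counting program and strandedness are not given in the sources used here. Counts were filtered (filterByExpr, minimum count 10), scaled by TMM and fitted with a robust quasi-likelihood model on group in edgeR 4.0.16 (R 4.3.3). Calls used an adjusted p under 0.05; the standard error is the log2 fold change divided by the root of F. DESeq2 1.42.0 and limma 3.58.1 were alternatives, as were other scalings and filters, an adjusted p under 0.01, a test against 1.5-fold, leaving out each library, and the library number as a covariate. CPM used TMM-scaled totals, and log2 CPM a prior count of 2. Gene pairs were compared by the log2 ratio of counts plus 0.5, with exact two-sided permutation over libraries; the pairs, and leaving out control replicate 1 and NaCl replicate 5 together, were chosen after seeing the data. In simulated counts for this comparison (14029 genes), 68% of genes changed 1.25-fold and 92% of those changed 2-fold were recovered. The simulation used 1 fixed dispersion and called 182 genes, where 4789 were called in the data, so these rates need not hold for the data. Genes, lengths and overlaps came from GENCODE M21 (GRCm38), and shared sequence from blastn 2.17.0. The members and lists were chosen with earlier results of these data known. Named were the 10 genes, their paralogues, the called genes with the largest and smallest log2 fold change in each list (log2 CPM averaging 1 or more), Srf, Nab2, Max, Zfp36 and Odc1, and the 3 nearest patterns to 2 genes; other called genes were named after their values were seen, where 5 or fewer were called.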

Additional observations from a re-analysis of the deposited data

How the results depend on the processing

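All 10 genes kept a log2 fold change below 0 in all 210 refits (21 alternatives each), and stayed on the same side of the threshold in 178; 24 lost a call and 8 gained one. The number of the 10 that fell was 6 with DESeq2, limma and each other scaling and filter. It was 3 at an adjusted p under 0.01, beside 11.4% lower over all genes. Against a fold change of 1.5 it was 0, beside 0.806% of all genes, and no gene of the 10 had a fall that large in the main fit. It was 8 with the library number centred within its group, where lower calls over all genes also went from 17.2% to 22%. Leaving out a library gave 4 to 8, beside 14.4% to 16.7% lower over all genes. None of the 10 was called higher under any alternative. Over all genes the number called was 3145 at 0.01, 328 against 1.5-fold, 6030 with the number centred, 3382 with a linear drift, and 4071 to 4634 without a library. Over the pathway lists 55 genes fell and 25 rose, against 3 and 3 in the 1.5-fold test, in which the values of Egr1 (-0.54), Egr3 (-0.56), Ier2 (-0.47), Klf4 (-0.24), Myc (-0.16) and Nr4a1 (-0.29) all had an adjusted p of 1. At 0.01 the calls of Klf4 (-0.24), Myc (-0.16) and Nr4a1 (-0.29) were lost. Without control replicate 1 and NaCl replicate 5 together, Klf4 was at -0.20 (adjusted p = 0.130) and Myc at -0.14 (0.0601). With a linear drift, Egr3 (-0.72), Klf4 (-0.22) and Nr4a1 (-0.29) lost the call and Ier3 (-1.03), Ier5 (-0.29) and Klf6 (-0.21) gained it. With the number centred, Ier5 (-0.13) and Klf6 (-0.081) gained it. Without a library the log2 fold changes ranged from -0.49 to -0.27 for Egr2, -0.17 to -0.094 for Ier5, -0.27 to -0.22 for Klf4, -0.11 to -0.063 for Klf6, -0.20 to -0.13 for Myc and -0.35 to -0.23 for Nr4a1. The cause of these differences was not tested. No paired analysis was possible because the library numbers of the groups are not shared. Low counts limit Egr2 and Egr3, where counting error alone is 7.07 to 9.31% of a library's value.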

Other observations

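NaCl replicate 8 had the highest level of the NaCl group for 5 of the 10 genes, Egr2, Ier3, Ier5, Myc and Nr4a1, and the lowest for Egr1 and Ier2. NaCl replicate 5 had the lowest for 5 genes, Egr3, Ier3, Ier5, Klf4 and Myc. Summed over the 10 genes, the level was 532, 532, 576 and 571 CPM in control replicates 1 to 4 and 426, 454, 471 and 484 CPM in NaCl replicates 5 to 8. The difference between the group means of that sum, NaCl minus control, was -93.5 CPM, and the differences of single genes were -41.3 CPM for Egr1, -17.6 CPM for Ier2 and -10.7 CPM for Ier3. These counts over libraries were made after the values had been seen.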
